A study of Mus musculus with 6 samples.

Results

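The receptors of the transforming growth factor-β (TGF-β) and bone morphogenetic protein (BMP) families were followed in kidney cells of Trf1+/+ and Trf1flox/flox mice. The list was chosen by name and holds 10 genes, namely Tgfbr1, Tgfbr2, Tgfbr3, Acvr1, Acvr1b, Acvr2a, Acvr2b, Bmpr1a, Bmpr2 and Eng. Of these, 9 are among the 12125 genes of the deposited table, and the expression of Eng, which encodes the co-receptor endoglin, was not analysed here. All 9 passed the filter on low values and are among the 9966 genes tested. The members divide into 4 type I receptors, 4 type II receptors and 1 co-receptor, Tgfbr3.

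Ligands of this superfamily are secreted dimers that bring together type I and type II receptors, both of which are serine/threonine kinases of the cell membrane. The type II receptor is active by itself and phosphorylates the type I receptor, which then phosphorylates receptor Smads in the cytoplasm, and these enter the nucleus with Smad4. In the kidney, TGF-β signaling is known for driving fibroblasts to deposit matrix, and BMP signaling, above all through Bmp7, is known for opposing it. Co-receptors such as Tgfbr3 (betaglycan) have no kinase and present ligand to the other chains.

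Trf1 is the name used here, as in the labels, for the gene Terf1, which encodes a telomere-binding protein of the shelterin complex. Mice of the genotypes Trf1+/+; Col1a2-CreERT2 and Trf1flox/flox; Col1a2-CreERT2 were compared, with 3 libraries in each group. In both groups the Col1a2 promoter drives a Cre recombinase that tamoxifen switches on, so the deletion is meant for cells with an active Col1a2 promoter, and both carry a reporter allele from which Cre releases the Katushka fluorescent protein (KFP). Mice of both groups, males and females, were 6 to 8 weeks old at the start and received tamoxifen 3 times a week for 8 weeks. Each library was made from 500 sorted cells, labelled as kidney fibroblasts and stained for the surface integrin CD29 and for KFP. The sex of each mouse is not in the labels, and the replicate numbers used here follow the order of the samples and pair no mice. The question was whether the loss of Trf1 in these cells changes the expression of the receptors through which they read TGF-β and BMP ligands.

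The libraries held 10263382 to 12248797 reads on the listed genes, and 881 to 2153 of these fell on the receptors. In the library labelled Trf1+/+ replicate 1, 3158 genes were listed at 0 and the median value was 13.4 normalized counts, against medians of 118 to 148 elsewhere. Terf1 stood at 0.891, 253 and 235 normalized counts in Trf1+/+ replicates 1, 2 and 3 as labelled. In the Trf1flox/flox replicates it stood at 110.0, 7.65 and 12.4. The library labelled Trf1+/+ replicate 1, with 1 read, thus lay below every Trf1flox/flox library, against what its label predicts. In a library with 3158 genes at 0, a lost transcript cannot be told from one not captured. Terf1 thus does not settle this label. Trf1flox/flox replicate 1, with 128 reads, lay above the other Trf1flox/flox libraries and below Trf1+/+ replicates 2 and 3, so this gene does not settle its label either. All directions below rest on the groups as labelled. The labelled cell type was checked with marker genes. Of 12 fibroblast markers only Col1a2 and Dcn are listed, and Col1a2 had at most 2 reads in every library. The summed fibroblast markers ranged from 1.66 to 94.6 normalized counts in Trf1+/+ libraries and from 2.58 to 98.4 in Trf1flox/flox libraries. All 13 proximal tubule markers are listed, and their sum ranged from 111581 to 208930 in Trf1+/+ and from 91605 to 209896 in Trf1flox/flox libraries. The 8 markers of the loop of Henle and distal tubule summed to between 69822 and 160756 in the 6 libraries. Dcn had 95, 89 and 57 reads in Trf1+/+ replicate 3 and Trf1flox/flox replicates 2 and 3 and at most 1 read in the others. Fibroblast transcripts were thus few and tubule transcripts abundant in all 6 libraries, and the cells are called sorted kidney cells here. In such bulk libraries, fewer cells of a type and less RNA per cell cannot be told apart.

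**Figure D1:**
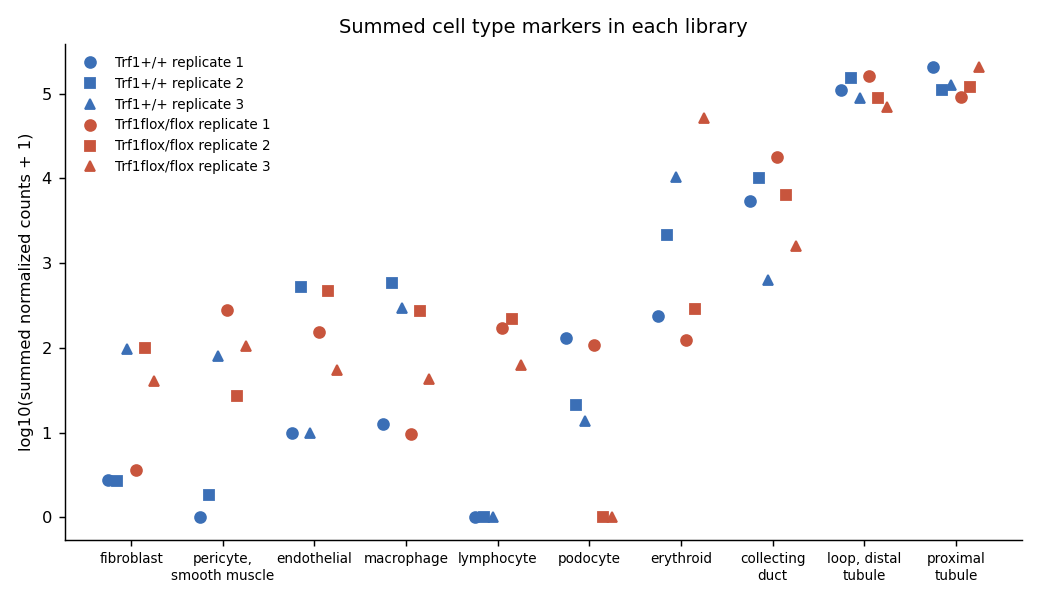
Summed normalized counts of the listed markers of 10 kidney and blood cell types (log10 of the sum plus 1, y axis) in each of the 6 libraries, with colour for the genotype and symbol shape for the replicate. Proximal tubule sums lie between 91605 and 209896, while fibroblast sums do not exceed 98.4.

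Reads behind the values were recovered from the steps of the normalized counts, and 3 reads or fewer are called the floor, which covers counting error only. Below, "counts" stands for normalized counts as deposited, and "reads" for the recovered reads. Receptor transcripts were unevenly read. Of the 54 receptor values (9 receptors in 6 libraries), 12 or 22.2% lay at or under the floor, against 14.2% of the values of all tested genes. Only Tgfbr1 was above the floor in all 6 libraries, whereas 49.8% of all tested genes were. The library labelled Trf1+/+ replicate 1 had 3 receptors above the floor, and Trf1+/+ replicates 2 and 3 had 8 and 6. The Trf1flox/flox libraries had 8, 8 and 9. The low number in the library labelled Trf1+/+ replicate 1 goes with the share of all tested genes above the floor, which was 65.6% there and between 80.0% and 97.5% in the other libraries. The median within-group SD of the receptors was 2.63 on the log2 scale, against 2.17 for all tested genes.

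Differences between genotypes are given as log2 fold changes of Trf1flox/flox over Trf1+/+ after 1 was added to each normalized count, and were tested with limma across the 9966 genes. No receptor passed an adjusted p of 0.05 in limma, edgeR or DESeq2. Of all tested genes, 0 passed it in limma, where 454 (4.56%) had an unadjusted p under 0.05, 0 passed it in edgeR and 58 in DESeq2. At an unadjusted p under 0.05, 1 of the 9 receptors (Acvr1) was higher in Trf1flox/flox libraries, beside 3.54% of all tested genes, and 0 were lower, beside 1.01%. The count of higher receptors was 1 in edgeR, beside 1.26% of all genes, and 2 in DESeq2, beside 2.44%. The groups did not overlap for 1 receptor that was higher in Trf1flox/flox libraries, beside 5.35% of all tested genes, and for 0 that were lower, beside 3.33%. The fold change was positive for 7 of the 9 receptors and for 55.9% of all tested genes. The median log2 fold change was 1.18 over the receptors and 0.20 over all tested genes. When the library labelled Trf1+/+ replicate 1 was left out, the medians were 0.54 and -0.03 and the positive receptors 5 of 9, beside 48.9% of the tested genes. Acvr1 was then the 1 receptor higher at an unadjusted p under 0.05 (3.31% of all tested genes) and the 1 whose groups did not overlap (9.15%), and 0 receptors were lower by either measure (1.28% and 8.74%). Acvr1 is part of every count of higher or non-overlapping receptors given here. It passed the filter only through its Trf1flox/flox values, so its groups had to stand apart and these counts are no independent result. On the exact two-sided permutation test of single receptors, p ranged from 0.1 to 1, and 0.1 is the smallest p that 3 libraries against 3 allow.

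**Figure D2:**
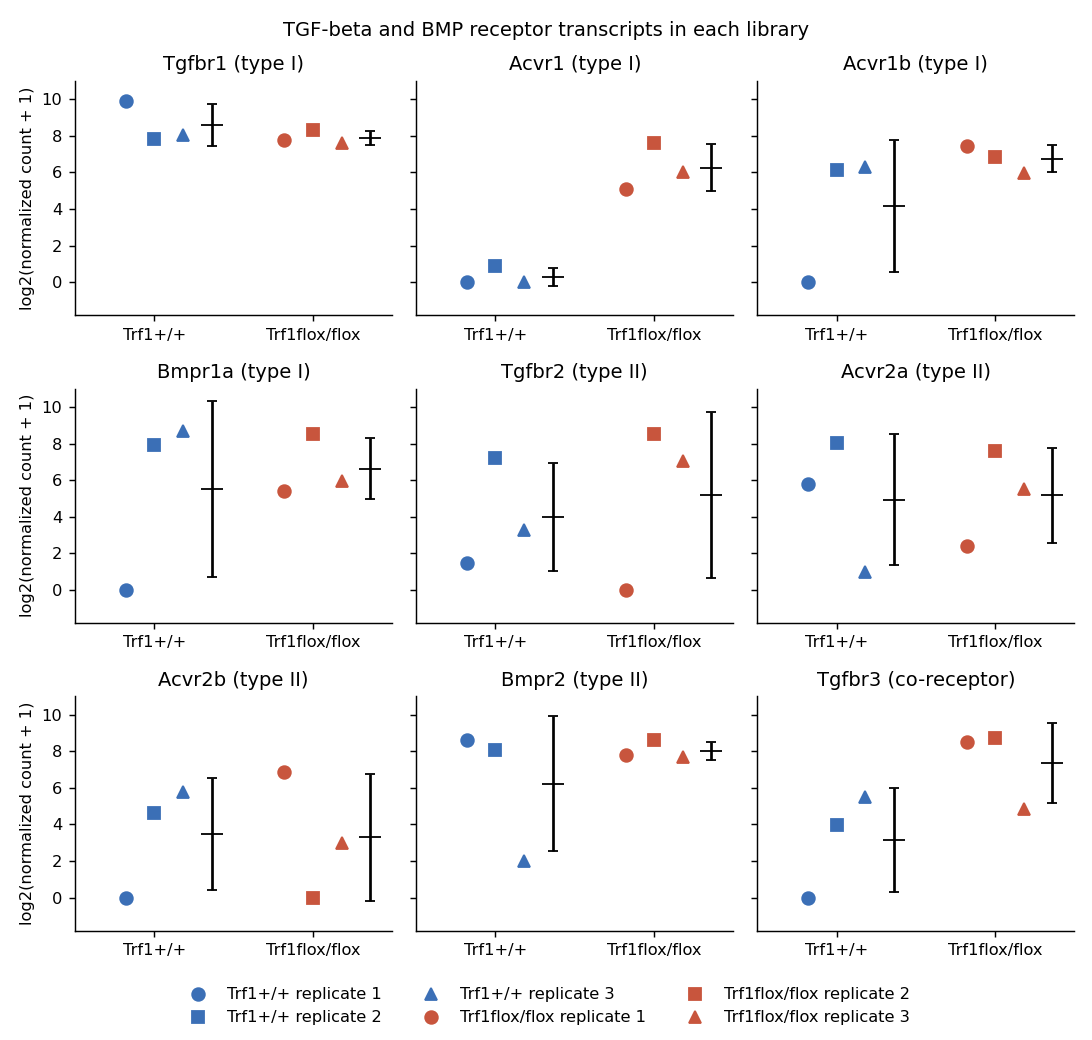
Each of the 9 receptors in each library, as log2 of the normalized count plus 1 (y axis), with Trf1+/+ libraries in blue and Trf1flox/flox libraries in red and a symbol for each replicate, beside the group mean ± SD (black, n = 3). The groups do not overlap for Acvr1 and overlap in the other 8 panels.

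Tgfbr1 encodes the type I chain that carries the TGF-β signal to Smad2 and Smad3. The gene (ENSMUSG00000007613) lies on chromosome 4 of GRCm38 from 47353222 to 47414931. It had 975, 226 and 268 counts in replicates 1, 2 and 3 labelled Trf1+/+ and 219, 321 and 192 in Trf1flox/flox replicates 1, 2 and 3. The library labelled Trf1+/+ replicate 1 stood apart from the other 5, at 4.31 times the lowest Trf1+/+ value, while the Trf1flox/flox values differed 1.68-fold at most. The group means were 489.8 ± 421 and 244 ± 68.3 (SD, n = 3). The log2 fold change was -0.71 (standard error 0.91, unadjusted p = 0.465 from limma), and without the library labelled Trf1+/+ replicate 1 it was -0.05. The 255 to 1095 reads behind these values were the steadiest of the list, with a within-group SD of 0.86 on the log2 scale, and 21.6% of the tested genes had a smaller one.

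Acvr1 (ALK2), a type I receptor of BMP6, BMP7 and related ligands, was the receptor whose groups stood apart. It lies on chromosome 2 from 58388644 to 58567157 (ENSMUSG00000026836). In replicates 1, 2 and 3 labelled Trf1+/+ it had 0, 0.829 and 0 counts, and in Trf1flox/flox replicates 1, 2 and 3 it had 33.5, 197 and 64.8. These values stand for 0, 1 and 0 reads against 39, 180 and 94 reads, so the groups did not overlap. The mean of 98.3 ± 86.6 in Trf1flox/flox libraries was at least 36.4-fold higher than the floor of 3 reads per Trf1+/+ library. The fitted log2 fold change was 5.97 (standard error 0.96, unadjusted p = 0.000725, adjusted p = 0.140 from limma), and by its p the gene stood at rank 49 of 9966. Acvr1 passed the filter only through its Trf1flox/flox values, so it had to differ between the groups. It was 1 of 74 tested genes (0.743%) at the floor in all 3 Trf1+/+ and above it in all 3 Trf1flox/flox libraries, and 8 genes had the reverse pattern. Leaving out each library in turn gave log2 fold changes between 5.28 and 6.54, with 5.82 without the library labelled Trf1+/+ replicate 1 and 6.54 without Trf1flox/flox replicate 1. The fitted size depended on how low values are treated, at 3.09 with a pseudocount of 10, 7.89 in edgeR and 8.26 in DESeq2. Over the 14 alternatives run, the unadjusted p ran from 0.000533 to 0.0130 and the adjusted p from 0.102 to 0.999. These include limma with a mean-variance trend (adjusted p = 0.970), edgeR (0.999) and DESeq2 (0.102).

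Among the cell type markers tested, Trac and Cspg4 had an unadjusted p under 0.05 in limma. Both were higher in Trf1flox/flox libraries, as were 3.54% of all tested genes at that threshold. Trac, the constant region of the T cell receptor α chain, is the 1 lymphocyte marker listed of 9. It had 0, 0 and 0 counts in Trf1+/+ and 172, 216 and 61.3 in Trf1flox/flox libraries (adjusted p = 0.110 from limma and 0.00706 from DESeq2). Like Acvr1, Trac passed the filter only through its Trf1flox/flox values, so it had to differ between the groups. Cspg4, the pericyte proteoglycan NG2, had 0, 0 and 37.4 against 173, 18.6 and 88.9, and its groups overlapped. Among the Trf1flox/flox libraries, replicate 2 had the highest Acvr1 and Trac values and the lowest Cspg4 value. The 3 listed of 9 pericyte and smooth muscle markers summed to between 0 and 79.8 counts in Trf1+/+ and between 26.2 and 280.1 in Trf1flox/flox libraries. The part of these cells in the Acvr1 values was not tested.

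Acvr1b (ALK4) is the type I receptor of activins (ENSMUSG00000000532, chromosome 15, 101174067 to 101213684). It had 0, 70.4 and 77.8 counts in replicates 1, 2 and 3 labelled Trf1+/+ and 172, 116 and 62.7 in the Trf1flox/flox libraries. The library labelled Trf1+/+ replicate 1 was at 0, and the other 5 lay between 62.7 and 172 with the groups overlapping. The log2 fold change was 2.61 (standard error 1.85, unadjusted p = 0.208 from limma), and leaving that library out gave 0.54.

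Bmpr1a (ALK3), the type I receptor of BMP2 and BMP4, lies on chromosome 14 from 34410734 to 34503341 (ENSMUSG00000021796). Its counts were 0, 239 and 412 across the Trf1+/+ libraries and 41.2, 363 and 61.3 in the Trf1flox/flox libraries, so the latter lay within the range of the former. The log2 fold change of 1.09 (standard error 2.48, unadjusted p = 0.674 from limma) became -1.67 without the library labelled Trf1+/+ replicate 1. Of its exonic bases, 290 lie across from the antisense gene Gm17110, and reads there cannot be told apart in unstranded libraries.

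Tgfbr2 encodes the type II chain that binds TGF-β and activates Tgfbr1. It is annotated on chromosome 9 from 116084293 to 116175360 (ENSMUSG00000032440). Its counts were 1.78, 150.0 and 8.87 across the Trf1+/+ libraries and 0, 365 and 131 in the Trf1flox/flox libraries. Each group thus held a library at the floor and another well above 100 counts. With a within-group SD of 3.83 on the log2 scale, Tgfbr2 was the most variable receptor of the list, and 92.5% of the tested genes varied less. The log2 fold change was 1.18 (standard error 2.63, unadjusted p = 0.669 from limma), and it was -0.48 without Trf1flox/flox replicate 2 and -0.08 without the library labelled Trf1+/+ replicate 1.

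The upstream windows of Tgfbr1 and Tgfbr2 are shown because these chains work as a pair, yet the first was read in every library and the second was at the floor in 2. Each is the run of 250 bases before the start of the gene in RefSeq on GRCm38.p6, written in the direction of the gene. Capitals mark GGGCGG, the GC box bound by Sp1, and CAGAC, a core bound by Smads, searched on both strands, and these motifs do not overlap each other here. The first sequence is chr4:47352972-47353221 on the plus strand and the second is chr9:116175364-116175613 on the minus strand.
Tgfbr1: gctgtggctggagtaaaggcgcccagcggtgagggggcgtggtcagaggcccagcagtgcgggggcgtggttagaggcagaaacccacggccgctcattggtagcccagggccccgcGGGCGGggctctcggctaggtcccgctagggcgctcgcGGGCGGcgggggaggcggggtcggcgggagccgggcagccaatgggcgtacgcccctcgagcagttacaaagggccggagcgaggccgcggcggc
Tgfbr2: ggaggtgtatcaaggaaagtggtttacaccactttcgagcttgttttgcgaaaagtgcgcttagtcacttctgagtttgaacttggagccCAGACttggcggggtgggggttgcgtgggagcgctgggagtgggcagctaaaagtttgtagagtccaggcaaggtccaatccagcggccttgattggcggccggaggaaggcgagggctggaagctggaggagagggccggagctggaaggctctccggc
The Tgfbr1 window shown holds 2 GC boxes, 0 Smad cores and 74.8% G and C, and the Tgfbr2 window holds 0 GC boxes, 1 Smad core and 58.4% G and C. A second Tgfbr1 window, further into the gene, holds 0 GC boxes, 1 Smad core and 52.8% G and C. RefSeq gave 10 such windows for 9 of the 10 receptors, Eng included, 2 of them for Tgfbr1. Of these, 7 hold a GC box and 5 a Smad core, and of 32851 promoter windows of the same length 32.7% hold the former and 42.2% the latter. The G and C share of the receptor windows ran from 52.8% to 85.6%, with a median of 52.4% over all windows. A match describes the letters of a window and is no evidence of a bound factor.

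Acvr2a and Acvr2b are the type II receptors of activins, which also serve several BMPs. Acvr2a (ENSMUSG00000052155, chromosome 2, 48814109 to 48903269) had 53.4, 257 and 0.985 counts across the Trf1+/+ libraries and 4.30, 189 and 44.8 in the Trf1flox/flox libraries. Acvr2b (ENSMUSG00000061393, chromosome 9, 119402118 to 119434995) had 0, 24.0 and 53.2 in the former and 117, 0 and 6.89 in the latter. Both genes varied widely within either genotype, and they did not vary in the same libraries. Trf1flox/flox replicate 1, with the highest Acvr2b value, had 5 reads of Acvr2a, and Trf1flox/flox replicate 2, with 189 counts of Acvr2a, had 0 reads of Acvr2b. The log2 fold changes were 0.24 (standard error 2.19, unadjusted p = 0.915 from limma) and -0.18 (standard error 2.26, unadjusted p = 0.939 from limma). In 446 exonic bases Acvr2a overlaps Orc4 on the other strand, and reads there could come from either gene.

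Bmpr2, the type II receptor of BMPs, is the longest gene model of the list at 17983 exonic bases (ENSMUSG00000067336, chromosome 1, 59763400 to 59879014). It had 394, 264 and 2.96 counts across the Trf1+/+ libraries and 220.0, 386 and 206 in the Trf1flox/flox libraries. The Trf1flox/flox values differed 1.87-fold at most, and the only library at the floor was Trf1+/+ replicate 3, with 3 reads. The log2 fold change was 1.81 (standard error 1.87, unadjusted p = 0.371 from limma), and without Trf1+/+ replicate 3 it was -0.31.

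Tgfbr3, the co-receptor betaglycan, binds TGF-β2 and inhibins and presents TGF-β to Tgfbr2. It lies on chromosome 5 from 107106570 to 107289629 (ENSMUSG00000029287). Its counts were 0, 14.9 and 44.3 in replicates 1, 2 and 3 labelled Trf1+/+ and 369, 416 and 27.6 in Trf1flox/flox replicates 1, 2 and 3. Trf1flox/flox replicates 1 and 2 lay above all Trf1+/+ libraries, while replicate 3 lay within their range. The group means were 19.8 ± 22.6 and 271 ± 212 (SD, n = 3). The log2 fold change was 4.19 (standard error 1.82, unadjusted p = 0.0597, adjusted p = 0.996 from limma). Over the alternatives the unadjusted p ran from 0.0306 to 0.291 and the adjusted p from 0.519 to 1.00, with log2 fold changes between 1.94 and 5.45. Of its exonic bases, 297 overlap the unlisted gene model Gm43422 on the same strand.

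**Figure D3:**
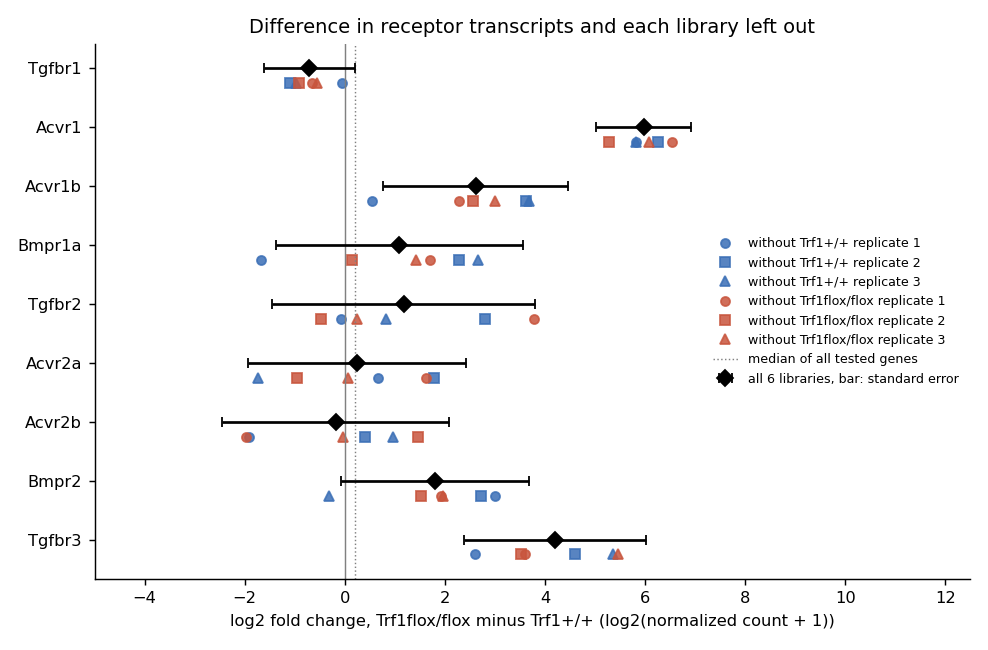
Log2 fold change of each receptor, Trf1flox/flox minus Trf1+/+ (x axis, log2 of normalized count plus 1), with all 6 libraries (black diamond, bar ± standard error) and with the libraries left out one by one (coloured symbols). Acvr1 stays between 5.28 and 6.54 and Tgfbr3 between 2.61 and 5.45, while Bmpr1a, Tgfbr2, Acvr2a, Acvr2b and Bmpr2 each lie on both sides of 0.

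Levels of different receptors were compared per kilobase of exon, since long transcripts collect more reads. Over the 6 libraries the mean level was highest for Tgfbr1, at 56.2 ± 46.1 counts per kb (SD, n = 6), followed by Bmpr1a at 29.3 ± 27.8 and Tgfbr3 at 22.2 ± 29.4. Acvr1b had 18.8 ± 13.0, Acvr2a 16.1 ± 18.7, Bmpr2 13.6 ± 7.98, Tgfbr2 13.4 ± 17.4, Acvr1 10.2 ± 15.9 and Acvr2b 8.53 ± 11.6 counts per kb. Each step in this order was smaller than the SD of either neighbour. With the longest transcript in place of all exons, Bmpr2 had 19.0 counts per kb and Acvr1 15.0, above Acvr1b at 18.8 and Tgfbr2 at 13.5, respectively.

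The leading receptor per kb changed from library to library. Tgfbr1 held 82.6% of the receptor level per kb in the library labelled Trf1+/+ replicate 1. Acvr2a led with 25.8% in Trf1+/+ replicate 2 and Bmpr1a with 44.7% in Trf1+/+ replicate 3. Among the Trf1flox/flox libraries, Tgfbr3 led with 30.5% in replicate 1 and 18.9% in replicate 2, and Tgfbr1 with 27.2% in replicate 3. The summed type I level was 149, 88.3 and 123 counts per kb across the Trf1+/+ libraries and 85.9, 173 and 66.6 in the Trf1flox/flox libraries. The summed type II level was 31.5, 84.3 and 15.0 in the former and 42.7, 99.3 and 37.1 in the latter. In every library the type I sum exceeded the type II sum, and for both sums the genotypes overlapped.

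**Figure D4:**
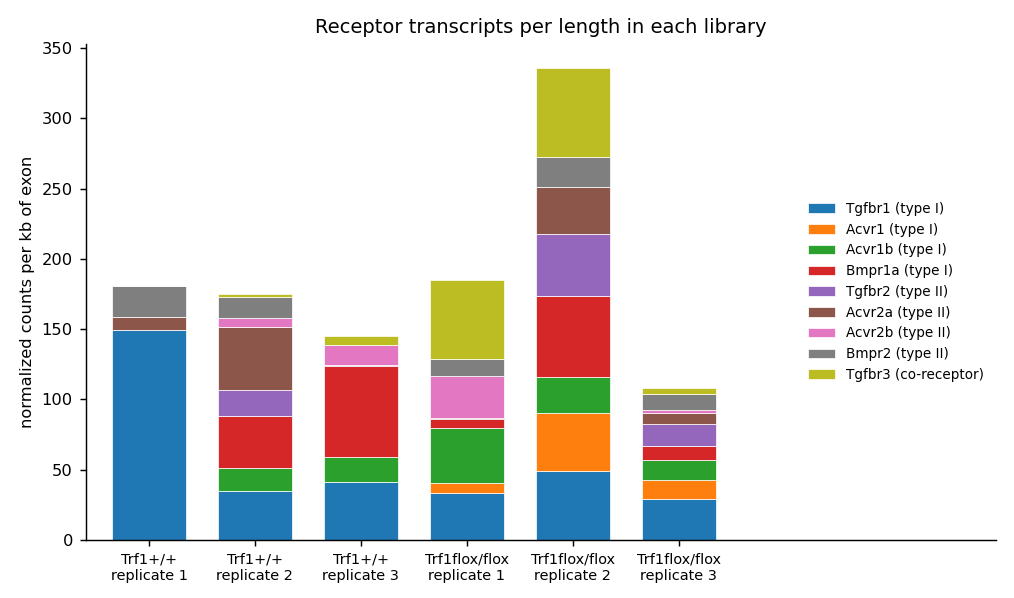
Normalized counts per kb of exon (y axis) of the 9 receptors, stacked, in each of the 6 libraries (x axis), with a colour for each receptor. Acvr1 (orange) is visible in the 3 Trf1flox/flox libraries only, and the library labelled Trf1+/+ replicate 1 is mostly Tgfbr1 (82.6%).

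For each receptor, the tested genes with the closest profile were found by the root mean square difference of log2 values over the 6 libraries, after each gene's own mean was taken off. The genes nearest to Acvr1 were Bbs7 (0.36), Nsun5 (0.39) and Gm42979 (0.40), which also had at most 1 read in every Trf1+/+ library. For Tgfbr1 they were Ndufs1 (0.17), Cmip (0.18) and Psmc6 (0.19), genes that were also highest in the library labelled Trf1+/+ replicate 1. Acvr1b lay closest to Pcgf5 (0.22), Man2a1 (0.29) and Emx2 (0.29), and Bmpr1a to Kmt5c (0.35), Ubald2 (0.37) and Man2b2 (0.50). Tgfbr3 lay closest to Selenoo (0.63), Prkcsh (0.65) and Ext2 (0.74). Among the type II receptors, the nearest genes were Dock6 (0.67), Dennd11 (0.86) and Prss36 (0.87) for Tgfbr2, and Atp13a1 (0.63), Ccnk (0.68) and Cebpa (0.76) for Acvr2a. They were Zfp182 (0.42), Cep41 (0.44) and Gpatch4 (0.48) for Acvr2b, and Cep20 (0.36), Dpp4 (0.41) and Smim5 (0.42) for Bmpr2. No receptor was among the 3 nearest genes of another. The closest receptor pair was Acvr1b and Tgfbr3, at 1.35, and 1080 other genes were closer to Acvr1b and 228 closer to Tgfbr3. Tgfbr2 differed from its partner Tgfbr1 by more than it did from Acvr2a, its nearest receptor at 2.32.

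The genes around the receptors were read by the same rule. Among 14 other receptors and co-receptors of the superfamily, 6 are listed and 4 were tested, and 0 of these had an unadjusted p under 0.05 in limma. Their log2 fold changes were all positive, with a median of 1.60. Nrp1, a co-receptor, had 2.67, 558 and 188 counts in Trf1+/+ and 779, 215 and 145 in Trf1flox/flox libraries. Without the library labelled Trf1+/+ replicate 1, in which Nrp1, Neo1 and Rgmb had 0 to 3 reads, 1 of the 4 was positive and the median was -0.13.

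Of 27 ligands, 6 are listed and 4 were tested, and 0 passed an unadjusted p of 0.05 in limma, with 3 positive fold changes and 1 negative. Bmp7, the BMP that opposes TGF-β in kidney, had 0, 4.97 and 529 counts in Trf1+/+ and 150, 176 and 263 in Trf1flox/flox libraries. Bmp4 had 252, 115 and 325 in the former and 524, 15.3 and 98.5 in the latter. The list median was 1.19, and leaving out the library labelled Trf1+/+ replicate 1 gave -0.12.

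Among 25 extracellular inhibitors and proteins of TGF-β latency, 12 were tested, 5 had a positive and 7 a negative fold change, and 0 had an unadjusted p under 0.05 in limma. The median was -0.39, and without the library labelled Trf1+/+ replicate 1 it was 0.06 with 6 positive. Sostdc1, a BMP antagonist of the distal tubule, had the most counts of this list, between 4876 and 15162 counts in the 6 libraries. Itgav, the αv integrin chain that releases active TGF-β, had 2932, 479.7 and 566 counts in Trf1+/+ and 624, 774 and 759 in Trf1flox/flox libraries.

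Smads are the proteins that the type I receptors phosphorylate, their partner Smad4 and their inhibitors. Of 8 Smads, 5 were tested, and 2 were higher in Trf1flox/flox libraries at an unadjusted p under 0.05, beside 3.54% of all tested genes, with the groups not overlapping, beside 5.35%. Smad7, the inhibitory Smad that is induced by TGF-β and blocks its type I receptor, had 0, 43.9 and 0 counts in replicates 1, 2 and 3 labelled Trf1+/+ and 489.8, 254 and 154 in the Trf1flox/flox libraries (log2 fold change 6.24, standard error 1.69, unadjusted p = 0.00973, adjusted p = 0.580 from limma). Smad2, a receptor Smad of the TGF-β arm, had 15.1, 13.3 and 12.8 against 56.7, 237 and 33.1 (log2 fold change 2.40, standard error 0.98, unadjusted p = 0.0497, adjusted p = 0.996 from limma). Smad4, the common Smad, had 1.78, 526 and 73.9 counts in Trf1+/+ and 98.0, 1.09 and 132 in Trf1flox/flox libraries, and the groups overlapped. Smad5 and Smad1, of the BMP arm, had log2 fold changes of -0.34 and 1.27.

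Of 35 intracellular regulators of the receptors and Smads, 27 were tested, 22 with a positive and 5 with a negative fold change, and the list median was 0.50. Rnf111 (Arkadia), a ubiquitin ligase that degrades Smad7 and the Ski proteins, was the 1 regulator of 27 with an unadjusted p under 0.05 (3.54% of all tested genes were higher at it), at 0, 5.80 and 122 counts in Trf1+/+ and 369, 203 and 231 in Trf1flox/flox libraries (log2 fold change 4.78, unadjusted p = 0.0363, adjusted p = 0.996 from limma). The groups did not overlap for 3 of the 27 regulators, beside 5.35% of all tested genes, namely Rnf111, Usp4 and Xiap, of which the last 2 were named after their values were seen. Usp4, a deubiquitinase of Tgfbr1, had 277, 106 and 229.6 counts in Trf1+/+ and 425, 1582 and 626 in Trf1flox/flox libraries. Fkbp1a, which holds type I receptors inactive, had 2391, 2554 and 1348 against 1083, 2276 and 1559 counts, and its groups overlapped.

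Of 32 widely used transcriptional targets, 12 are listed and 8 were tested, with 4 positive and 4 negative fold changes and a median of -0.58. Cdkn1a, the cell cycle inhibitor p21, was the 1 target of 8 with an unadjusted p under 0.05, beside the same 3.54%, at 0, 306 and 0 counts in Trf1+/+ and 588, 346 and 239.8 in Trf1flox/flox libraries (log2 fold change 5.76, unadjusted p = 0.0491, adjusted p = 0.996 from limma), and its groups overlapped. Id2, a BMP target, had 1604, 1846 and 2465 against 1189, 3049 and 2772 counts, and Timp3 had 2339, 1127 and 5505 against 2294, 2477 and 3565. For Id3, also a BMP target, the log2 fold change was -1.68 (standard error 1.41, unadjusted p = 0.278 from limma). None of these 6 pathway lists held a gene with an adjusted p under 0.05 in limma or DESeq2. Without the library labelled Trf1+/+ replicate 1, the genes with an unadjusted p under 0.05 in limma were 1 higher among the Smads, 1 higher and 1 lower among the regulators and 0 among the targets, beside 3.31% higher and 1.28% lower of all tested genes. These need not be the genes named above. In that fit the log2 fold changes were 5.32 for Smad7, 2.47 for Smad2, 3.17 for Rnf111 and 4.39 for Cdkn1a.

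**Figure D5:**
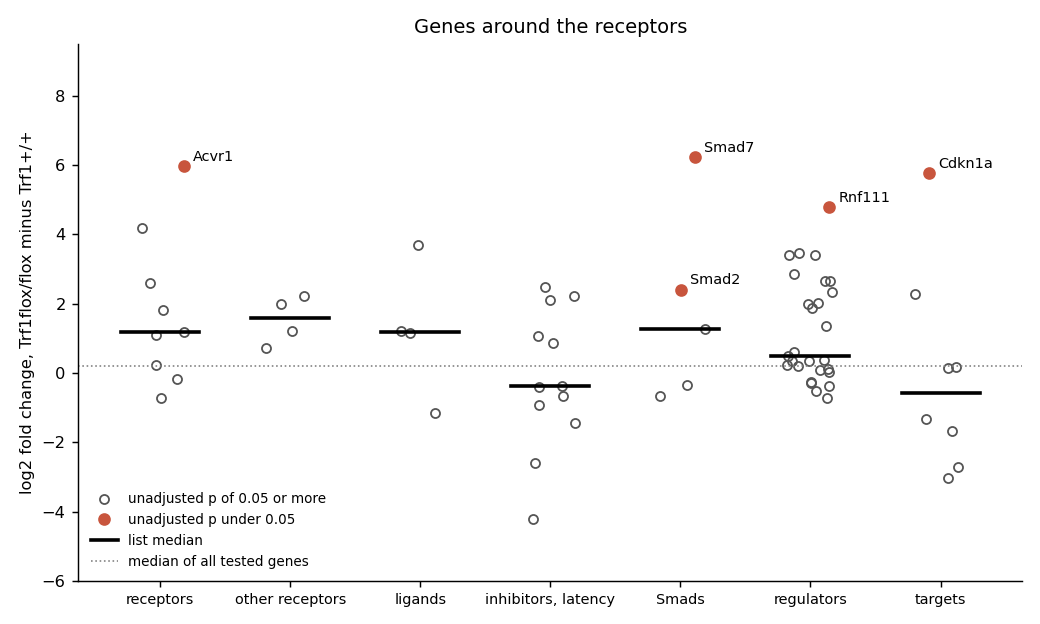
Log2 fold change, Trf1flox/flox minus Trf1+/+ (y axis), of each tested gene of 7 lists (x axis), filled where the unadjusted limma p is under 0.05, with the list median (black bar) and the median of all tested genes (dotted line, 0.20). Acvr1, Smad7, Smad2, Rnf111 and Cdkn1a are the filled points, and list medians run from -0.58 to 1.60.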

How the data were processed

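RNA-seq libraries of sorted kidney cells were analysed, 3 from Trf1+/+ and 3 from Trf1flox/flox mice, with groups taken from the genotype label. The labels number no replicates. Nothing but the study's wording ties each library to a mouse, so p-values measure the spread between these libraries. The authors prepared unstranded libraries by oligo(dT) priming, template switching and PCR without molecular identifiers, aligned reads with TopHat 2.0.10 and Bowtie 1.0.0 to GRCm38 and counted them with HTSeq 0.6.1 on GENCODE M20 genes, while the processing notes name GRCm39 and DESeq2. The deposited values are a signal, reads per gene divided by 1 size factor per library, and whole reads were recovered for 100% of the values within a tolerance of 0.001. The fit was planned for normalized counts as deposited, and these were used. PCR duplicates and dropout at 500 cells make low values uneven.

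Genes that reached 10 normalized counts in 3 libraries or more were tested on log2(normalized count + 1) with limma 3.58.1 in R 4.3.3, without trend or covariates, with Benjamini-Hochberg adjustment over 9966 genes. This scale understates changes of low genes. Single receptors were also tested by an exact two-sided permutation test. The scripts were tested on simulated data, which checks the code and does not measure how the tests behave on these libraries. Alternatives were other pseudocounts, no filter, upper quartile scaling, a mean-variance trend, edgeR 4.0.16 and DESeq2 1.42.0 on the recovered reads, each library left out, and the longest transcript for levels per kb. Leaving out both libraries with the most genes at 0 was added after seeing the data. Positions and exon lengths are those of GENCODE M21 on GRCm38, which matched 98.0% of the symbols, and promoter windows those of RefSeq. Named genes are all receptors, list members with an unadjusted p under 0.05 in limma, and up to 5 tested members of a list with the highest mean normalized count. Smad3, Bmpr1b and Gdf11, which were not tested, are named besides. The receptors and all lists were chosen with earlier results of these data known. Protein sequences were not used here.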

Additional observations from a re-analysis of the deposited data

How the results depend on the processing

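No paired analysis was possible because the labels give no replicate numbers. The direction of Acvr1, Acvr1b, Tgfbr1 and Tgfbr3 was kept in all 14 alternatives run for each. For Acvr1 this was fixed in advance, since it passed the filter only through its Trf1flox/flox values. With each library left out, the log2 fold change ranged from -1.67 to 2.67 for Bmpr1a, from -0.48 to 3.77 for Tgfbr2, from -1.72 to 1.79 for Acvr2a, from -1.98 to 1.46 for Acvr2b and from -0.31 to 3.01 for Bmpr2. On recovered reads, edgeR gave -0.61 for Bmpr1a, -0.49 for Acvr2a and 0.62 for Acvr2b, and DESeq2 gave -0.49, -0.39 and 0.67. With a pseudocount of 10, Acvr2a was at -0.085. Without Trf1+/+ replicate 1 and Trf1flox/flox replicate 2 together, Bmpr1a was at -2.62 (unadjusted p = 0.0364 from limma), Tgfbr2 at -1.75 and Acvr2a at -0.54, 4 of 9 receptors had a positive fold change (52.7% of all tested genes), 1 was lower at an unadjusted p under 0.05 (1.13%) and 2 were lower with groups not overlapping (14.4%). The cause of these moves was not tested.

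With a pseudocount of 10 and with DESeq2, 2 receptors were higher at an unadjusted p under 0.05, Acvr1 and Tgfbr3. Beside them, 387 of the 9966 tested genes were higher in limma with that pseudocount, and 2.44% in DESeq2. For Tgfbr3, the unadjusted p was 0.0419 in limma with that pseudocount and 0.0306 in DESeq2. With each library left out, 1 to 2 receptors were higher at this threshold, beside 2.36% to 7.45% of all tested genes. Limma gave Tgfbr3 an unadjusted p of 0.0369 without Trf1+/+ replicate 3, where 7.45% of all tested genes were higher. Without Trf1flox/flox replicate 3 it was 0.0332, beside 2.64% of all tested genes. In the fits with each library left out, 1 to 3 receptors lay wholly higher, beside 8.72% to 13.6% of all tested genes. Acvr1, which had to differ between the groups, is part of each of these counts of higher receptors. Wholly lower were 0 to 1, beside 5.98% to 10.8%. At an unadjusted p under 0.05, 0 were lower, beside 0.682% to 1.7% of all tested genes. A positive fold change was found for 5 to 8 receptors, beside 48.9% to 59.2%. Over all genes, those higher at an unadjusted p under 0.05 numbered 353, 209 with a trend, 126 with edgeR and 235 to 742 with each library left out. Those lower numbered 101, 167 with DESeq2 and 68 to 169 with each library left out. DESeq2 called 58 genes at an adjusted p under 0.05, where limma called 0. The median log2 fold change of all tested genes moved from 0.20 to 0.44 under upper quartile scaling and to -0.04 and -0.05 with edgeR and DESeq2. At 3 reads or fewer in 22.2% of the receptor values, a low receptor cannot be told from one that was not captured.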

Other observations

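Some genes of the lists did not pass the filter on low values and entered no comparison. Smad3, the receptor Smad of the TGF-β arm beside Smad2, had 1 read in each library labelled Trf1+/+ and 314, 0 and 35.8 normalized counts in the Trf1flox/flox libraries. Bmpr1b, the type I BMP receptor closest to Bmpr1a, had 0, 308 and 1.97 normalized counts in Trf1+/+ libraries, beside 1.72, 285 and 0 in Trf1flox/flox, so replicate 2 of each genotype held nearly all of its reads. Gdf11, a ligand of Acvr2a and Acvr2b, had 0, 39.8 and 164 normalized counts in the former and 0, 0 and 3.45 in the latter.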
